A study of Mus musculus with 12 samples.

Results

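The 45 genes described here encode the machinery of cell division: 21 act at the G1/S transition and in DNA replication (the S phase genes) and 24 act in G2 and mitosis (the mitosis genes). They were chosen by name and looked up by mouse Ensembl identifier among the 55573 genes of the count table. All 45 were found, and all 45 were among the 16761 genes that passed the filter on low counts. RNA came from cortical cultures enriched for astrocytes, prepared from C57BL6/J mouse pups at postnatal day 0 to 2, and 12 strand-specific libraries were made from its polyA fraction. The cultures were replated at day 7 in vitro and carried for 5 days either the lentivirus pCIG3, which expresses GFP from a CMV promoter (control virus), or pCIG3-ACREB, the same backbone with ACREB, a protein that blocks the transcription factor CREB in a dominant-negative way. Vasoactive intestinal peptide (VIP) at 0.5 µM, or PBS alone, was then given for 30 min. Another 90 min passed before lysis. The 4 combinations (control PBS, control VIP, ACREB PBS and ACREB VIP) had 3 libraries each, numbered 1 to 3. All 4 groups were transduced, so no group shows the genes without lentivirus. Whether a number stands for its own culture or animal is not stated in the labels. The p-values below therefore reflect the spread between these libraries alone, and that spread may be technical.

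In a dividing cell, mitogens induce D cyclins, whose kinases inactivate the retinoblastoma protein and free E2F transcription factors. E2F then activates the S phase genes, which license and fire replication origins and supply nucleotides. The mitosis genes follow later: they are repressed in resting cells by the DREAM complex through a promoter element called the CHR (cell cycle genes homology region), and activated in G2 by MYBL2 and FOXM1. CREB binds the cyclic AMP response element (CRE). Astrocytes of newborn cortex divide, and dividing cells are common in cultures from pups of this age.

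Total counts were 16571398 to 20529238 per library, and the 45 genes together held 0.203% to 0.274% of them; the lowest count of any of these genes in any library was 60. The strand setting of the counting is not given in the sources used here, so the counts of 10 of the 45 genes are uncertain, since each shares exonic sequence with a gene on the opposite strand: Cdc45 (Ufd1), Ube2c (Tnnc2), Kif20a (Cdc23), Cdc20 (Elovl1), Nusap1 (Oip5), Ccna2 (Exosc9), Ccne2 (Ints8), Mcm7 (Ap4m1 and Cops6), Plk1 (Gm44985) and Gins2 (Gse1). The astrocyte markers Gfap and Slc1a3 were at 1051 to 1565 and 1817 to 2415 CPM (counts scaled to library size and composition), and 11 of 12 astrocyte markers passed the filter; the gap junction gene Gjb6 was at 0.00 to 0.26 CPM. The cultures also held microglial RNA: none of 15 microglia markers was at 0, and their summed level was 1623 to 3003 CPM in control PBS, 1533 to 3177 in control VIP, 2100 to 3742 in ACREB PBS and 2009 to 3912 in ACREB VIP. Nr4a2, an immediate early gene that CREB activates, rose with VIP under both viruses (log2 fold change 3.53, SE 0.20, with control virus and 2.32, SE 0.20, with ACREB; edgeR's quasi-likelihood test, adjusted p = 1.0e-05 and 0.00104) and was lower with ACREB than with control virus after VIP (log2 fold change -1.46, SE 0.18, adjusted p = 0.0146). These are bulk libraries, so fewer dividing cells and less RNA of these genes per dividing cell cannot be told apart.

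The promoters of the genes show the 2 classes side by side. RefSeq promoters of GRCm38.p6 (250 bases before to 50 after the start) were matched for 37 of the 45 genes, and each was searched on both strands for the CHR (TTTGAA or TTCGAA), E2F sites (TTCCCGC or TTGGCGC), the full CRE (TGACGTCA), its shorter form (TGACG, the short CRE) and the CCAAT box (CCAAT), which is bound by NF-Y. The short CRE lies within the full CRE, and TTCGAA is its own reverse complement. The following stretches hold the last 180 bases before the start, 5′ to 3′ on the gene's strand, with CHR, E2F and full CRE matches in capitals on either strand. They were chosen to show a CHR without an E2F site (Top2a, topoisomerase II, and Cdc20, activator of the anaphase-promoting complex), both elements (Mki67 and Cdk1), E2F sites without a CHR (Mcm5, Mcm6, Cdc6 and Hells) and the full CRE (Cenpe and Mcm5).
Mki67: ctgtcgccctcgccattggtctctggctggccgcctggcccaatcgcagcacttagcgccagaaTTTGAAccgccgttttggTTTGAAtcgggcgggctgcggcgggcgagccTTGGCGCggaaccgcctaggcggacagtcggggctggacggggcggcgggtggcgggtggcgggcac
Top2a: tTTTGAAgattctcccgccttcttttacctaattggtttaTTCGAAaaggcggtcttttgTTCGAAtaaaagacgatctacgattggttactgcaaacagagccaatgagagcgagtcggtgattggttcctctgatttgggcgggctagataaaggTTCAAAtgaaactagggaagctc
Cdk1: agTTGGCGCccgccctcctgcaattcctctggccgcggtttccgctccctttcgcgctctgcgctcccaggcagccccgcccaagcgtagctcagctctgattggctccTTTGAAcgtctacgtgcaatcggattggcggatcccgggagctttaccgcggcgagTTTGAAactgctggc
Cdc20: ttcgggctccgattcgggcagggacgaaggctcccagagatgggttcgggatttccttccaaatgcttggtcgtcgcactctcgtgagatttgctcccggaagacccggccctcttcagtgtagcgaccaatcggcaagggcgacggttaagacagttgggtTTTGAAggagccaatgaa
Cenpe: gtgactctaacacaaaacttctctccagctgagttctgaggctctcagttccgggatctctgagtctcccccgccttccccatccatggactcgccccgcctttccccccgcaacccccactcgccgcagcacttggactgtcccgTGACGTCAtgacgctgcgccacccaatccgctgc
Mcm5: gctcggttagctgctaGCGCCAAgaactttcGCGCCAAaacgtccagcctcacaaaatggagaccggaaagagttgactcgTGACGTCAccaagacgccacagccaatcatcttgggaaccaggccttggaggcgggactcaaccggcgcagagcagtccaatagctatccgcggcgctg
Mcm6: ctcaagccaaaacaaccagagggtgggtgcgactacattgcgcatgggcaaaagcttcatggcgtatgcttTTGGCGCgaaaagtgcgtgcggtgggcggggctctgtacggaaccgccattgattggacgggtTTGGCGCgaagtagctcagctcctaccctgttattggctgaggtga
Cdc6: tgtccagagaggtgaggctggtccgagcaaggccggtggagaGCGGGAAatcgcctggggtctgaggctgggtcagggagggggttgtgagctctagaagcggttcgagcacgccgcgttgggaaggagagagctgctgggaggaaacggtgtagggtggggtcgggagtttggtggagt
Hells: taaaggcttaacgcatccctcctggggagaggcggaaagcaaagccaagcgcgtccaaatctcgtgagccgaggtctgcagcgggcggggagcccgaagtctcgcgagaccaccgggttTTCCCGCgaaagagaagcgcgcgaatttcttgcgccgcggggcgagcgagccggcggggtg
These stretches lie at chr7:135716380-135716559 (- strand) for Mki67, chr11:99024190-99024369 (- strand) for Top2a, chr10:69352913-69353092 (- strand) for Cdk1, chr4:118437344-118437523 (- strand) for Cdc20, chr3:135212383-135212562 (+ strand) for Cenpe, chr8:75109329-75109508 (+ strand) for Mcm5, chr1:128359706-128359885 (- strand) for Mcm6, chr11:98907971-98908150 (+ strand) for Cdc6 and chr19:38930810-38930989 (+ strand) for Hells. Of the mitosis genes, 15 of 19 (78.9%) held a CHR and 3 (15.8%) an E2F site; of the S phase genes, 4 of 18 (22.2%) held a CHR and 11 (61.1%) an E2F site. Over all 27025 genes with a promoter in the table, 21.7% held the CHR letters and 7.79% an E2F site. A CCAAT box was in 17 mitosis promoters (89.5%) and 11 S phase promoters (61.1%), against 41.1% of all genes. The full CRE was found in 1 mitosis promoter (5.26%), that of Cenpe, and in 1 S phase promoter (5.56%), that of Mcm5, against 2.03% of all genes, and the short CRE in 6 of each class (31.6% and 33.3%, against 23.0%). A match describes letters in the window and not a bound site.

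**Figure D1:**
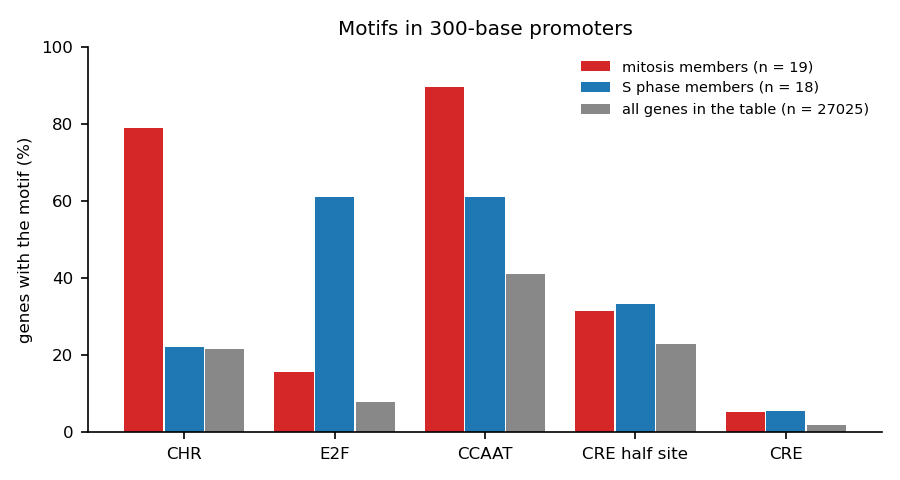
Share of genes (%) whose 300-base RefSeq promoter holds each motif on either strand, for 19 mitosis genes (red), 18 S phase genes (blue) and all 27025 genes of the promoter table (grey). The CHR stands out in the mitosis genes (78.9%) and the E2F site in the S phase genes (61.1%), while the full CRE is in 1 gene of each class.

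Levels at rest were compared per kilobase of exon in the control PBS libraries (mean ± SD, n = 3). Pcna, the sliding clamp of DNA polymerase, was highest at 73.5 ± 5.45 CPM per kb, followed by Rrm2, a subunit of ribonucleotide reductase, at 38.5 ± 0.434, and Cdc20 at 33.4 ± 3.28. Top2a followed at 25.7 ± 12.7, a spread that overlaps both neighbours in the order, Cdc20 and the mitotic and S phase cyclin Ccna2 (20.8 ± 4.96). The lowest were the licensing factor Cdc6 (1.99 ± 0.296), the spindle checkpoint kinase Ttk (1.88 ± 1.06), E2f2 (1.85 ± 0.464) and the replication checkpoint kinase Chek1 (1.38 ± 0.553), whose ranges overlap one another. The median was 11.0 CPM per kb over the mitosis genes and 7.63 over the S phase genes, with ranges of 1.88 to 33.4 and 1.38 to 73.5.

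One library stood farthest apart for the mitosis genes, and ACREB PBS library 2 departed less, to the same side. Control PBS library 2 had a mean log2(CPM + 2) of 5.13 over the 24 mitosis genes, against 5.75 and 5.72 in control PBS libraries 1 and 3, whereas its S phase mean (5.23) lay beside those of the others (5.13 and 5.22). Within it the departure followed base composition: of the 23 genes with the lower transcript GC content, 19 were below the mean of libraries 1 and 3 (median log2 difference -0.86), and of the 22 with the higher GC content 4 were below (median 0.30). Over the 45 genes, which share this library, the departure correlated with GC content at a Pearson r of 0.76 and a Spearman rho of 0.84. With log2 length of all exons of the gene the values were -0.62 and -0.53. ACREB PBS library 2 had a mitosis mean of 5.14, against 5.39 and 5.46 in ACREB PBS libraries 1 and 3. Its S phase mean was 5.12, against 5.07 and 4.96. Each library's departure from the gene's median over the 12 libraries was also taken, over all genes tested. GC content and length accounted for 42.3% of its variance in control PBS library 2 and for 20.6% in ACREB PBS library 2. The part of GC content and length in the results was not tested apart from fits that remove the trend or leave a library out. Some values of those fits are given with the results.

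**Figure D2:**
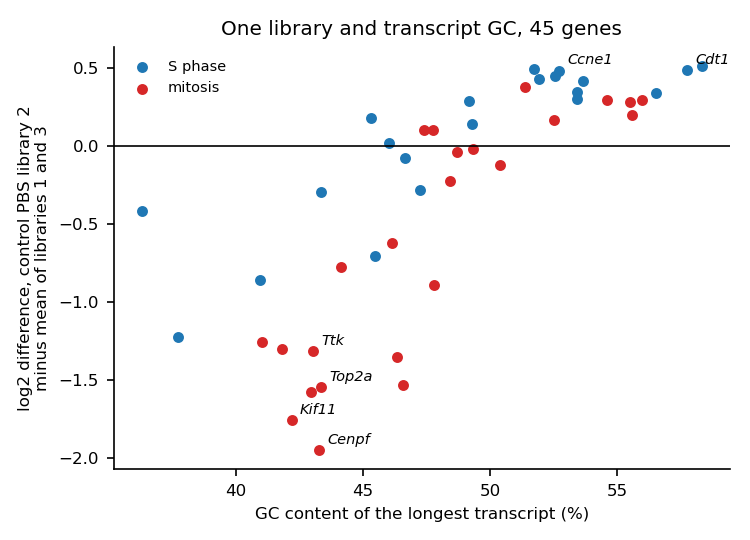
Departure of control PBS library 2 from the mean of control PBS libraries 1 and 3 (log2 difference, vertical axis) against GC content of the longest transcript (%, horizontal axis), 1 point for each of the 45 genes. Low-GC mitosis genes such as Cenpf and Kif11 lie farthest below 0, and the genes of higher GC content lie mostly above it.

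With PBS, ACREB cultures had lower levels of the mitosis genes than control-virus cultures, by a median log2 fold change of -0.29 (18.1% lower) against 0.01 over all 16761 genes tested. All 24 mitosis genes were below 0 (range -0.54 to -0.11), where 48.8% of all genes were. At an adjusted p of 0.05, edgeR's quasi-likelihood test called none of them (0 of 45, background 0.0358%; smallest adjusted p = 0.384, for Cdc20). At an unadjusted p under 0.05, 11 mitosis and 3 S phase genes were lower and 0 higher, against 2.72% of all genes lower and 2.58% higher. Without control PBS library 1, control PBS library 3 or ACREB PBS library 2, 17, 20 and 19 of the 24 mitosis genes were below 0 (medians -0.23, -0.22 and -0.21). Without control PBS library 2, all 24 were below 0, with a median of -0.36. With the library number as a block and offsets for GC content and length, 6 genes passed as lower (background 1.28%): Cdc20, Kif20a, Birc5, Rrm2, Plk1 and Cdk1, with adjusted p of 0.0155 to 0.0443 by edgeR. Without control PBS library 2, a choice made after seeing the data, the same fit called 4 (background 0.794%): Top2a, Cdc20, Cenpf and Kif20a.

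Cdc20, which loads substrates on the anaphase-promoting complex (chr4:118432901-118437352, minus strand, GRCm38), had 56.2, 68.4 and 62.4 CPM with control virus and 44.9, 44.5 and 45.5 CPM with ACREB. All 3 ACREB libraries lay below all 3 control libraries, and every numbered pair was lower with ACREB (log2 fold change -0.47, SE 0.13). The mitotic kinase Plk1 (chr7:122159439-122169873, plus strand) had 42, 50.9 and 40.2 CPM with control virus and 32.3, 36.6 and 34.1 CPM with ACREB. Its groups did not overlap (log2 fold change -0.37, SE 0.12; adjusted p = 0.549 by edgeR). Birc5, the survivin subunit of the chromosomal passenger complex, had 30.9, 34.6 and 33.2 CPM with control virus and 25.6, 27.5 and 25 CPM with ACREB. The groups again did not overlap (log2 fold change -0.34, SE 0.10).

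Cdk1, the kinase that drives entry into mitosis, had 71.4, 80.3 and 77.5 CPM with control virus and 57.4, 68.8 and 60.5 CPM with ACREB. This gives a log2 fold change -0.30, SE 0.10. Aurkb, the kinase of the passenger complex, had 28.8, 35.1 and 33.3 CPM with control virus and 27.1, 27.1 and 23.7 CPM with ACREB. This gives a log2 fold change -0.32, SE 0.12. Foxm1, the transcription factor of the G2 and mitosis programme, had 46.3, 55.8 and 43.7 CPM with control virus and 37.3, 41.2 and 40.2 CPM with ACREB. This gives a log2 fold change -0.30, SE 0.11, and -0.18, SE 0.09, without control PBS library 2. In these 3 genes every ACREB library was below every control library. In all, 12 of the 24 mitosis genes had groups that did not overlap (background 4.44%), and the same number were lower in all 3 numbered pairs (background 20.1%).

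The long, low-GC mitosis genes had wide control groups. Mki67, the marker of cycling cells, had 171, 59.6 and 181 CPM with control virus and 101, 82.4 and 156 CPM with ACREB. It was lower with ACREB in pairs 1 and 3 and higher in pair 2 (log2 fold change -0.28, SE 0.34). Without control PBS library 2 it was -0.64 (SE 0.22, adjusted p = 0.702 by edgeR). Top2a had 311, 101 and 283 CPM with control virus and 256, 135 and 233 CPM with ACREB. Control library 2 was the lowest of the 6 (log2 fold change -0.15, SE 0.35; -0.51, SE 0.24, without it). Cenpf, a kinetochore protein, had 80.0, 18.2 and 72 CPM with control virus and 27.8, 24.4 and 65.3 CPM with ACREB. It had the largest fold change of the mitosis genes and a large error (log2 fold change -0.54, SE 0.46; -0.95, SE 0.32, without control PBS library 2). Kif11, the motor that separates spindle poles, had 53.4, 13.7 and 48.5 CPM with control virus and 45.7, 20.9 and 40.4 CPM with ACREB and overlapped throughout (log2 fold change -0.11, SE 0.44; -0.51, SE 0.32, without that library). ACREB PBS library 2 was also below the mean of ACREB PBS libraries 1 and 3 for these genes. The log2 difference was -0.97 for Kif11, -0.84 for Top2a, -0.76 for Cenpf and -0.59 for Mki67. Leaving out that ACREB library instead gave a log2 fold change of 0.16 for Kif11 and 0.08 for Top2a. Mki67 and Cenpf stayed below 0 in every alternative fit (highest -0.03 and -0.21). The B-type cyclin Ccnb1 had 75.5, 42.8 and 73.7 CPM with control virus and 59.7, 53.2 and 55.8 CPM with ACREB. Ccna2 had 101, 62 and 92 CPM with control virus and 83.3, 71.8 and 81.3 CPM with ACREB. In both, control library 2 was below all ACREB libraries and controls 1 and 3 above them. Without it the log2 fold change was -0.40 (SE 0.10) for Ccnb1 and -0.28 (SE 0.10) for Ccna2.

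The S phase genes were lower by a median log2 fold change of -0.20 (12.8% lower), with 18 of 21 below 0 (background 48.8%). Groups did not overlap for 3 of them (background 4.44%), and 11 were lower in all 3 numbered pairs (background 20.1%). The MCM helicase subunit Mcm2 had 55.6, 84.6 and 63.4 CPM with control virus and 48.5, 62.3 and 49.8 CPM with ACREB. Control library 1 was below the highest ACREB library (log2 fold change -0.34, SE 0.15; -0.15, SE 0.12, without control PBS library 2). Mcm5 had 52.8, 77.4 and 61.5 CPM with control virus and 53.1, 64.4 and 52.5 CPM with ACREB. Mcm6 had 84.8, 73.6 and 95.3 CPM with control virus and 80.4, 90.5 and 83.5 CPM with ACREB. Both overlapped, and the fold change of Mcm6 was near 0 (log2 fold change 0.00, SE 0.12). Rrm2 had 107, 108 and 105 CPM with control virus and 93.6, 101 and 76.6 CPM with ACREB. Every ACREB library was below every control (log2 fold change -0.24, SE 0.12). Pcna had 168, 191 and 169 CPM with control virus and 149.8, 176 and 135 CPM with ACREB. It was lower in each pair, but the groups overlapped (log2 fold change -0.20, SE 0.11).

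Gins2, a subunit of the replicative helicase, had 20.8, 28.1 and 23.9 CPM with control virus and 19.9, 20.0 and 18 CPM with ACREB. It did not overlap and was lower in each pair (log2 fold change -0.33, SE 0.13). Uhrf1, which carries DNA methylation through replication, had 56, 76.3 and 57.4 CPM with control virus and 49.5, 58.4 and 45.4 CPM with ACREB. The groups overlapped, and each pair was lower (log2 fold change -0.31, SE 0.14). Cyclin E1 (Ccne1) had 8.47, 12.6 and 8.39 CPM with control virus and 7.74, 10.3 and 5.44 CPM with ACREB. Cdc6 had 9.04, 12.1 and 10.0 CPM with control virus and 8.89, 9.68 and 6.62 CPM with ACREB and E2f1 had 20.6, 30.6 and 21 CPM with control virus and 20.7, 22.7 and 15.5 CPM with ACREB. These 3 overlapped between groups. Chek1 went the other way in this comparison, with 7.69, 3.45 and 8.07 CPM with control virus and 9.82, 5.99 and 8.84 CPM with ACREB. It was higher with ACREB in each pair (log2 fold change 0.36, SE 0.30; adjusted p = 0.956 by edgeR). Without control PBS library 2 its log2 fold change was 0.07 (SE 0.24).

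After VIP, the ACREB comparison uses 6 other libraries, and the mean log2 level of the mitosis genes had an SD of 0.05 (control) and 0.12 (ACREB) against 0.35 and 0.17 with PBS (n = 3 each). The median log2 fold change was -0.32 over the mitosis genes (20.0% lower) and -0.18 over the S phase genes (11.6% lower), against 0.00 over all genes tested. All 45 genes were below 0, where 49.6% of all genes were. The mitosis genes ranged from -0.53 (Cenpf) to -0.12 (Ube2c, the ubiquitin-conjugating enzyme of the anaphase-promoting complex) and the S phase genes from -0.39 (Ccne1) to -0.04 (E2f2). No gene passed an adjusted p of 0.05 (0 of 45, background 0.0537%; smallest adjusted p = 0.358, for Cenpa, by edgeR). Under an unadjusted p of 0.05, 10 mitosis and 2 S phase genes were lower and 0 higher (background 2.82% lower and 2.88% higher). DESeq2 called 1 gene, Cenpa, at an adjusted p of 0.0280 (background 0.799%). With the block and the GC and length offsets 9 genes passed as lower (background 2.19%): Cenpa, Cdc20, Plk1, Aurkb, Ccnb2, Kif20a, Foxm1, Bub1b and Rrm2, with adjusted p of 0.0159 to 0.0382 by edgeR. Of these 9 genes, 8 act in mitosis. Control PBS library 2 is not in this comparison but enters the shared estimate of spread. Without it, again a choice made after seeing the data, that fit called 17 (14 mitosis and 3 S phase genes, background 4.04%).

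Cenpa, the centromeric histone H3 variant (chr5:30666777-30674830, plus strand), had 44.4, 40.2 and 45.2 CPM with control virus and 35.6, 31.7 and 32.7 CPM with ACREB. The groups did not overlap (log2 fold change -0.38, SE 0.10). Aurkb had 29.6, 27.5 and 33.5 CPM with control virus and 23.5, 22.8 and 24.8 CPM with ACREB, also apart (log2 fold change -0.35, SE 0.12; adjusted p = 0.625 by edgeR). Ccnb2, another B-type cyclin, had 24.2, 24.6 and 30.4 CPM with control virus and 23, 18.8 and 20.1 CPM with ACREB. This gives a log2 fold change -0.35, SE 0.12. The lowest control library of Ccnb2 lay just above the highest ACREB library. Foxm1 had 45.9, 44.1 and 45 CPM with control virus and 35.6, 36.9 and 36.7 CPM with ACREB (log2 fold change -0.31, SE 0.11), with every ACREB library below every control. Plk1 had 34.3, 33.9 and 39.3 CPM with control virus and 29.1, 28.8 and 30.2 CPM with ACREB. Cdc20 had 47.3, 48.7 and 61.4 CPM with control virus and 43.6, 37 and 45.9 CPM with ACREB. Both were apart, Cdc20 narrowly.

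Of the genes with wide control PBS groups, Mki67, Cenpf, Ccna2 and Ccnb1 were apart after VIP and Top2a and Kif11 overlapped. Mki67 had 197, 167 and 154 CPM with control virus and 148, 122 and 118 CPM with ACREB, with no overlap (log2 fold change -0.42, SE 0.34). Top2a had 348, 294 and 270.1 CPM with control virus and 282, 195 and 200.5 CPM with ACREB, and the highest ACREB library lay between control libraries (log2 fold change -0.43, SE 0.35). Cenpf had 76, 81.9 and 71.4 CPM with control virus and 58.6, 47.2 and 52.8 CPM with ACREB, with no overlap. Ccna2 had 97.8, 88.2 and 92.2 CPM with control virus and 81.4, 70.8 and 80.2 CPM with ACREB. Ccnb1 had 68.1, 68.2 and 74.4 CPM with control virus and 61.2, 52.0 and 60.9 CPM with ACREB. Cdk1 had 71.1, 70.3 and 76.7 CPM with control virus and 58.6, 60.3 and 62.4 CPM with ACREB, and was lower in each pair (log2 fold change -0.27, SE 0.10). Kif11, with 59.1, 46.9 and 36.5 CPM with control virus and 52.6, 29.1 and 31.9 CPM with ACREB, overlapped but was lower in each pair.

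Groups did not overlap for 16 of 24 mitosis genes and 7 of 21 S phase genes (background 7.06%), and all 3 numbered pairs were lower for all 24 mitosis genes and for 14 S phase genes (background 21.6%). Among S phase genes, Rrm2 had 103, 122 and 104 CPM with control virus and 84.6, 89.9 and 88.6 CPM with ACREB, apart and lower in each pair (log2 fold change -0.32, SE 0.12). Pcna had 166, 178 and 183 CPM with control virus and 150.4, 156 and 148 CPM with ACREB. Mcm2 had 58.9, 64.9 and 67.8 CPM with control virus and 52.7, 57 and 55.8 CPM with ACREB. Both were apart. Uhrf1 had 54.9, 54.8 and 62.1 CPM with control virus and 47.6, 53.4 and 51 CPM with ACREB, also apart. Mcm5 had 54.9, 60.0 and 66.5 CPM with control virus and 47.1, 60.9 and 56.6 CPM with ACREB. Mcm6 had 78.5, 87.7 and 99.7 CPM with control virus and 77.5, 84.3 and 80.4 CPM with ACREB and E2f1 22.8, 22.2 and 18.4 CPM with control virus and 18.3, 20.5 and 19.1 CPM with ACREB. All 3 overlapped.

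By role, the medians after VIP were -0.48 for the 3 spindle checkpoint genes (Bub1, Bub1b and Ttk), -0.37 for the 4 centromere and passenger genes, -0.33 for the 5 spindle genes and -0.29 for the 7 mitotic cyclins and kinases. On the S phase side they were -0.25 for the 4 genes of nucleotide supply and the clamp, -0.16 for the 10 genes of origin licensing and the helicase and -0.12 for the 4 E2F and cyclin E genes. With PBS, the corresponding medians were -0.26, -0.32, -0.12 and -0.31 on the mitosis side and -0.17, -0.22 and -0.24 on the S phase side. Mki67 and Top2a had a median of -0.42 with VIP and -0.22 with PBS. The 2 genes of the anaphase-promoting complex (Cdc20 and Ube2c) had -0.22 and -0.39, and Foxm1 had -0.31 and -0.30. Uhrf1, Chek1 and Hells had a median of -0.18 and -0.11. After VIP, Cdc20 and Ube2c thus differed less than the genes of nucleotide supply, so mitosis and S phase roles overlapped.

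**Figure D3:**
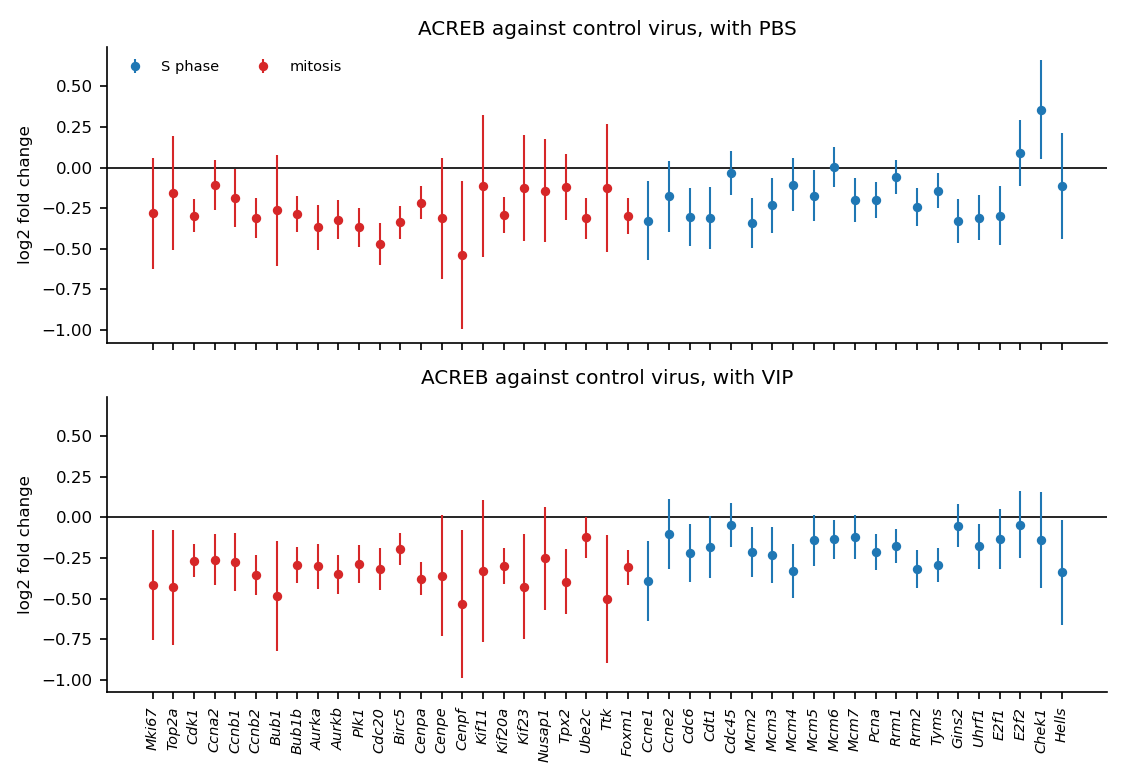
Log2 fold change of ACREB against control virus for each of the 45 genes (points; bars are 1 SE from the edgeR fit), with PBS above and with VIP below, mitosis genes in red and S phase genes in blue. All points lie below 0 with VIP; with PBS, Mcm6, E2f2 and Chek1 do not, and the long low-GC genes carry the widest bars.

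**Figure D4:**
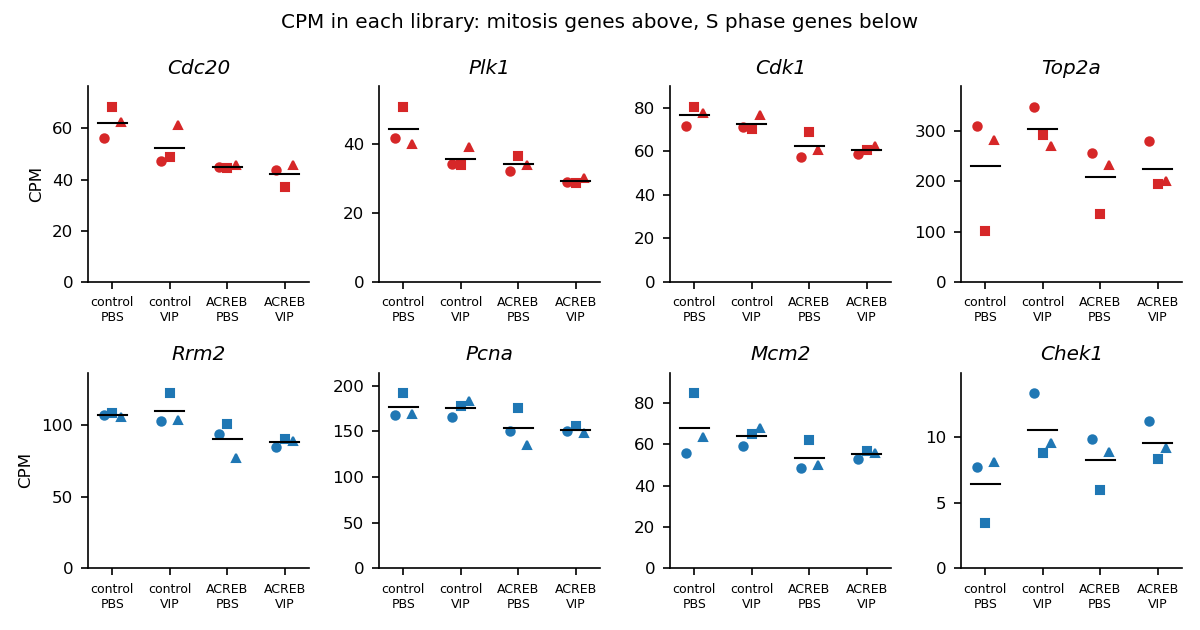
CPM of 4 mitosis genes (red, upper row) and 4 S phase genes (blue, lower row) in each of the 12 libraries, with circle, square and triangle for libraries 1, 2 and 3 and a line at the group mean. Cdc20 and Plk1 separate the ACREB from the control libraries within each treatment, Top2a is wide in control PBS, and Chek1 is lowest in control PBS library 2.

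To set the 2 phases against each other, the mean log2(CPM + 2) over the genes of each phase was taken in each library and compared within numbered pairs. With PBS, ACREB minus control was -0.06, -0.11 and -0.26 for S phase in pairs 1 to 3 (mean -0.14 ± 0.11 SD, n = 3 pairs) and -0.36, 0.00 and -0.26 for mitosis (-0.21 ± 0.19). The difference between the phases, mitosis minus S phase, was -0.06 ± 0.22, with -0.30 in pair 1, 0.11 in pair 2 and 0.00 in pair 3, so no difference between the phases was seen beyond the spread of the pairs. With VIP, ACREB minus control was -0.16, -0.14 and -0.23 for S phase (-0.17 ± 0.05) and -0.25, -0.40 and -0.32 for mitosis (-0.32 ± 0.07). Mitosis minus S phase was below 0 in each VIP pair, at -0.09, -0.26 and -0.09 (-0.15 ± 0.10). With each library's GC and length trend removed, mitosis with PBS was -0.28 ± 0.10 and S phase -0.17 ± 0.11. With VIP they were -0.32 ± 0.06 and -0.17 ± 0.05. Mitosis minus S phase was then -0.11 ± 0.18 with PBS, with -0.33, 0.00 and -0.02 in pairs 1 to 3. With VIP it was -0.15 ± 0.08, with -0.11, -0.24 and -0.10. With 3 pairs an exact sign-flip test cannot go below p = 0.25, so no p is given.

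**Figure D5:**
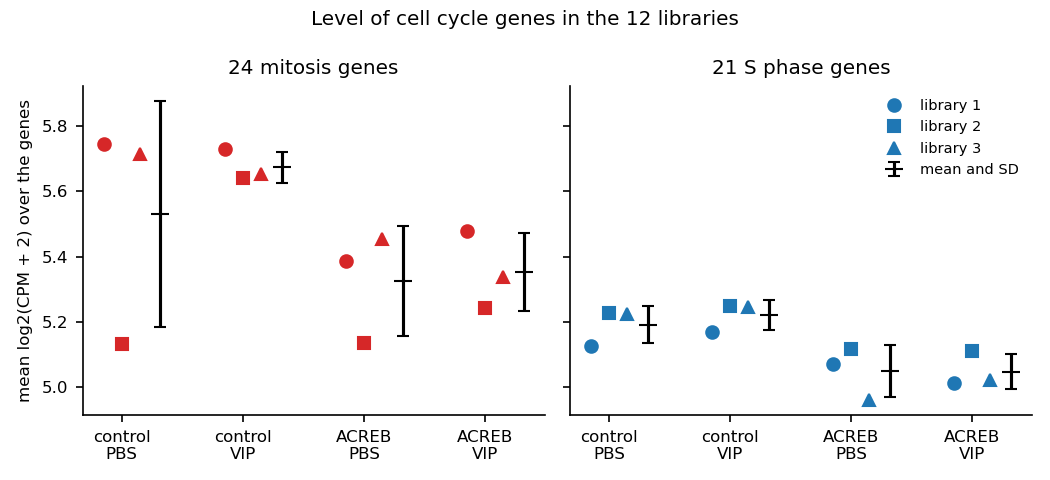
Mean log2(CPM + 2) over the 24 mitosis genes (left, red) and the 21 S phase genes (right, blue) in the 12 libraries (circle, square and triangle for libraries 1, 2 and 3), with group mean and SD. Control PBS library 2 lies at 5.13 for mitosis against 5.75 and 5.72 for the other 2, while its S phase value (5.23) is the highest of the 3 by a small margin (5.13 and 5.22 in the others).

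Differences with VIP were small after its 30 min of exposure and 90 min of recovery. With control virus the median log2 fold change of VIP against PBS was 0.10 over the mitosis genes and -0.03 over the S phase genes, and with ACREB virus 0.00 and -0.02. No gene passed an adjusted p of 0.05 under either virus (0 of 45 each; background 0.489% with control virus and 0.0119% with ACREB virus; smallest adjusted p = 0.614 and 1.00, by edgeR). Under an unadjusted p of 0.05, with control virus, 1 gene was lower, Plk1 (background 3.14%), and 1 higher, Chek1 (background 3.28%); with ACREB virus none was, against 1.28% of all genes higher and 0.644% lower. Plk1 was lower with VIP in all 3 pairs of each virus (log2 fold change -0.31, SE 0.12, with control virus; log2 fold change -0.23, SE 0.12, with ACREB). Chek1 had 7.69, 3.45 and 8.07 CPM in control PBS and 13.3, 8.74 and 9.56 CPM in control VIP. It was higher in each pair without overlap (log2 fold change 0.71, SE 0.30). Its lowest value is that of control PBS library 2, without which the log2 fold change was 0.42 (SE 0.24). Without that library the values with control virus were -0.20 (SE 0.10) for Plk1 and, for cyclin E1 below, -0.14 (SE 0.24). With the block and the GC and length offsets Chek1 was the 1 gene that passed, with a log2 fold change of 0.49 (SE 0.12, adjusted p = 0.0467 by edgeR; 3.39% of all genes passed). Cyclin E1 was lower with VIP in all 3 pairs of each virus, with 8.34, 7.80 and 6.76 CPM in control VIP and 5.05, 6.98 and 5.43 in ACREB VIP (log2 fold change -0.36, SE 0.24, and log2 fold change -0.43, SE 0.25). Cyclin E2 (Ccne2) had 18.2, 11.4 and 13.7 CPM in control PBS, 16.8, 19.8 and 14.1 in control VIP, 14.5, 10.8 and 13.1 in ACREB PBS and 17.4, 18.1 and 11.8 in ACREB VIP, overlapping throughout.

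The median over the mitosis genes with control virus rested on pair 2, in which VIP minus PBS was 0.51, against -0.02 and -0.06 in pairs 1 and 3; without control PBS library 2 the median was -0.05, and over the S phase genes it was 0.05. The test of whether ACREB altered the VIP response (the interaction of virus and treatment) called 0 of 45 genes (background 0%; smallest adjusted p = 1.00 by edgeR), and 0 had an unadjusted p under 0.05, against 1.2% of all genes. The median interaction was -0.05 over the mitosis genes and -0.01 over the S phase genes. The 3 genes with the smallest unadjusted p were Gins2 (log2 fold change 0.28, SE 0.19), Chek1 (log2 fold change -0.50, SE 0.42) and Cenpa (log2 fold change -0.16, SE 0.14).

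Other genes of the same pathways, which are not among the 45, lay to the same side. Of 55 other mitosis genes, 53 were below 0 with PBS (median -0.22) and 55 with VIP (median -0.32) in ACREB against control; of 36 other S phase genes, 25 and 35 were (medians -0.12 and -0.19). None of these passed an adjusted p of 0.05 by edgeR, whereas with the block and the GC and length offsets 9 (PBS) and 10 (VIP) of the other mitosis genes and, with PBS, 1 of the other S phase genes (Rfc4) were called lower; Pbk, Hmmr, Cks2, Kifc1, Ncapd2, Ckap2 and Ska3 were called in both. Upstream of them, 0 of 17 G1 cyclins, their kinases and pocket proteins, 0 of 7 CDK inhibitors and 0 of 18 p53 target genes passed in any of the 4 group comparisons, and their medians in ACREB against control lay between -0.15 and 0.00. With the block and offsets E2f5 and Tfdp1 were called lower with PBS, and E2f5, Cdkn2d and Sesn2 with VIP. For VIP against PBS with control virus the same fit called the p53 targets Plk2 (log2 fold change 0.45) and Sesn2 (0.29) higher, where 2.12% of all genes were, and with ACREB virus none of these 3 lists' genes. Cyclin D1 (Ccnd1), the sensor of mitogens, had a log2 fold change of -0.13 (SE 0.34) with PBS and 0.06 (SE 0.34) with VIP. Cyclin D2 (Ccnd2) had -0.12 (SE 0.24) and -0.10 (SE 0.24). The CDK inhibitors Cdkn1a (p21) and Cdkn1b (p27) had -0.15 (SE 0.20) and 0.03 (SE 0.14) with PBS, and 0.00 (SE 0.20) and -0.13 (SE 0.14) with VIP.

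Microglia markers were on the opposite side to the cell cycle genes in these comparisons. All 15 microglia markers were above 0 with ACREB in both comparisons (medians 0.36 with PBS and 0.46 with VIP), and 14 and 15 of them were higher in all 3 numbered pairs (20.7% and 22.2% of all genes were). None passed an adjusted p of 0.05 by edgeR; with the block and the GC and length offsets 5 and 8 did, all higher, against 0.662% and 1.24% of all genes. The summed level of these markers was higher with ACREB at each number, by a mean log2 ratio of 0.40 ± 0.09 with PBS and 0.52 ± 0.30 with VIP (SD, n = 3 pairs). The summed astrocyte markers differed by -0.03 ± 0.02 and 0.00 ± 0.03. Summed fibroblast and mural cell markers (4858 to 8590 CPM over the 12 libraries) were also higher with ACREB in all 6 pairs, by 0.11 ± 0.04 with PBS and 0.19 ± 0.13 with VIP. Their members did not move as one: 6 and 7 of 11 tested were above 0, and with the block and offsets Fn1 was called higher and Col1a2 lower with PBS, and Col1a1 lower with VIP. Summed endothelial markers were low (32.5 to 64.5 CPM; 1 of 9 was at 0 in every library) and higher in all 6 pairs, by 0.15 ± 0.06 and 0.18 ± 0.02, with Flt1 called higher in both comparisons by that fit. Summed neural progenitor markers were lower in all 6 pairs, by a mean log2 ratio of -0.09 ± 0.01 and -0.04 ± 0.05. Summed oligodendrocyte lineage markers were lower in all 3 pairs with PBS (-0.20 ± 0.18) but not with VIP (0.01 ± 0.07). Summed neuron markers differed by 0.10 ± 0.16 and 0.00 ± 0.11, with Tubb3 called lower in both comparisons with the block and offsets (log2 fold change -0.71 and -0.59). Summed ependymal markers differed by -0.04 ± 0.10 and 0.07 ± 0.10. The part of these differences between cell type markers in the lower level of the cell cycle genes was not tested.

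By promoter element, the 19 genes with a CHR had a median log2 fold change in ACREB against control of -0.28 with PBS and -0.32 with VIP, and the 18 without one -0.22 and -0.22. The 14 genes with an E2F site had -0.19 and -0.18, and the 23 without -0.28 and -0.32. The 12 genes with a short CRE had -0.20 and -0.23, and the 25 without -0.26 and -0.29. The elements go with the phase of the gene, so these splits repeat in large part the split by phase. The 2 genes with a full CRE, Cenpe and Mcm5, had a median of -0.24 with PBS and -0.25 with VIP, close to that of the other 35 genes (-0.24 and -0.28).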

How the data were processed

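The deposited table gives the authors' raw read counts for each Ensembl gene in each of the 12 libraries, neither normalized nor pooled. The genome was GRCm38, per the submitters' processing notes, which name edgeR, R 3.6.1, HTSeq 0.11.2, STAR 2.7.1a and Trimmomatic 0.39. For the annotation release and for the strand setting of the counting step: not given in the sources used here. Symbols were matched to 55480 of 55573 identifiers. The 45 genes and all other lists were chosen with earlier results of these data known.

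The test was edgeR 4.0.16 (R 4.3.3). After filterByExpr, 16761 genes remained; scaling was by TMM, and all 12 libraries entered a quasi-likelihood fit with a separate mean for each group (residual degrees of freedom 8). P-values were adjusted over all 16761 genes by Benjamini-Hochberg, with a threshold of 0.05. Standard errors are the fold change divided by the root of F. CPM values use the TMM-scaled totals; mean log2 levels add 2 CPM. The fit was tested on simulated data.

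The library numbers were taken to pair the groups: on edgeR's log2 CPM, deviations of same-numbered libraries correlated at 0.132 to 0.679 in 18 of 18 pairs (on log2(CPM + 2), 17 of 18 were over 0.1). The fit with the number as a block is an alternative, as are DESeq2 1.42.0, other filters and scaling, offsets per library for transcript GC content and length, and leaving out each library. Values in single libraries are given, for some or all comparisons, for a panel of 18 genes and for the 3 genes with the smallest unadjusted p in each comparison. Other genes are named as the largest or smallest, or as passing the test.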

Additional observations from a re-analysis of the deposited data

Results flagged for a closer look

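Chek1 differed in direction between the treatments: ACREB minus control was above 0 in all 3 numbered pairs with PBS and below 0 in all 3 with VIP. The interaction log2 fold change was -0.50 (SE 0.42), and it did not pass (adjusted p = 1.00, edgeR's quasi-likelihood test). Chek1 is among the lower-GC genes, and its lowest level of the 12 libraries (3.45 CPM) was in control PBS library 2.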

How the results depend on the processing

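All 45 genes passed the filter, so taking every gene with at least 1 count gave no separate value. The replicate block alone changed no gene's call (0 called in each comparison). The replicate block with GC and length offsets called 1 gene for VIP with control virus (background 3.39% in either direction). For ACREB it called 6 under PBS and 9 under VIP, all lower (background 1.28% and 2.19% lower). DESeq2 called 1 for ACREB under VIP (background 0.799% in either direction). Settings chosen after seeing the data left out control PBS library 2. The replicate block then called 6 for ACREB under VIP, all lower (background 1.83% lower). The replicate block with GC and length offsets called 4 under PBS and 17 under VIP (background 0.794% and 4.04% lower). Without 1 library at a time, 0 genes were called in any comparison.

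Over the 23 alternatives the median log2 fold change of ACREB against control stayed below 0: -0.36 to -0.21 (mitosis) and -0.28 to -0.13 (S phase) with PBS, and -0.38 to -0.28 and -0.22 to -0.17 with VIP. Leaving out 1 library, the mitosis median for VIP with ACREB virus ranged from -0.096 (without ACREB PBS library 2) to 0.036 and was -0.071 without ACREB VIP library 1; it was -0.11 without library 2 of both PBS groups. The S phase median ranged from -0.089 to 0.043. With control virus they ranged from -0.057 to 0.18 and from -0.12 to 0.054. The S phase interaction ranged from -0.094 (without ACREB VIP library 2) to 0.096 (without ACREB PBS library 2), and the mitosis interaction from -0.20 to 0.048. The mean mitosis minus S phase difference ranged from -0.15 to 0.058 for ACREB with PBS, and from -0.18 to -0.060 with VIP.

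Over the 45 genes and all alternatives, the sign turned in 34 of 1035 values for ACREB with PBS (14 genes) and 7 of 1035 with VIP (5 genes). It turned in 108 of 1035 for VIP with control virus (32 genes), 75 of 1035 with ACREB virus (27 genes) and 166 of 990 for the interaction (34 genes). The following are the 20 turns among 61 fold changes of named genes. With PBS, Mcm6 was at -0.0019 without a filter, -0.050 with offsets, -0.051 with replicate block and offsets, -0.082 without control PBS library 2 and -0.046 without ACREB PBS library 2. Without control PBS library 2 it was at -0.10 with the replicate block, -0.12 with block and offsets and -0.13 with ACREB PBS library 2 left out too. Leaving out 1 library gave -0.082 to 0.097 for Mcm6, -0.51 to 0.12 for Top2a, -0.51 to 0.20 for Kif11, -0.28 to 0.033 for Ccna2 and -0.32 to 0.023 for Ccne2. With VIP it gave -0.27 to 0.063 for Chek1, -0.21 to 0.070 for Ccne2 and -0.12 to 0.0051 for Gins2. The cause was not tested.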
